A study of Mus musculus with 16 samples.

Results

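The mRNA levels of the mitochondrial ribosomal proteins were measured by RNA-seq in mouse liver tumors and the surrounding liver, on a ketogenic and a normal diet. They were taken as every gene whose symbol is Mrpl or Mrps followed by a number and at most 1 letter, with at least 1 TPM (a read number per transcript length, scaled to a common total in each library) in at least 4 of the 16 libraries. Of 20601 genes listed, 77 symbols matched and all 77 passed this filter. They hold 50 proteins of the large subunit, 26 of the small subunit, and Mrps36, which carries the family's name but in human cells is a subunit of the 2-oxoglutarate dehydrogenase complex. Mrps30 and Mrps18a are counted with the large subunit, where structures of the mammalian mitoribosome place them.

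Hydrodynamic delivery brought 3 plasmids into the liver, 19 µg carrying human N-Ras, 1 µg carrying human c-Myc and 2 µg carrying the Sleeping Beauty transposase, an enzyme that inserts the transgenes into the genome of hepatocytes. From week 4 the mice ate a ketogenic diet (KD; 0.1% carbohydrate, 89.5% fat and 10.4% protein) or a normal diet (ND). This lasted 4 weeks, and both tissues were collected at week 8. The 8 mice gave 4 libraries of tumor and 4 of nontumor liver on each diet. All groups, the nontumor ones included, therefore come from livers that received the plasmids, and no liver without them is among the groups. The 2 tissues of a diet share their mice.

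The mitoribosome translates the few proteins encoded by mitochondrial DNA, all of them core subunits of the respiratory chain and ATP synthase. Its own proteins are encoded in the nucleus, made on cytosolic ribosomes and imported. Some descend from the bacterial ribosome and others were added in the mitochondrial lineage, and both kinds are spread over the large subunit, which joins amino acids and holds the exit tunnel, and the small subunit, which reads the mRNA. Liver is rich in mitochondria, and its respiratory chain burns the fatty acids that a ketogenic diet supplies.

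Promoter windows of 250 bases before to 50 bases after the start, from RefSeq (GRCm38.p6), were matched for 68 of the 77 genes and for 10291 of the 13432 genes tested. Both strands were searched for short letters of factors known at such genes. The ETS core (CCGGAAG) was in 24 of 68 member windows (35.3%) and in 17.8% of all windows, the NRF1 palindrome (GCGCA and GCGC with 1 base of any kind between them) in 13 (19.1%, against 10.1%) and the YY1 letters (AAGATGGC) in 12 (17.6%, against 4.7%). The E-box (CACGTG) was in 5 (7.4%, against 10.1%), and the CCAAT box in 26 (38.2%, against 38.6%). A pair of heat shock element units (GAANNTTC) was in 5 (7.4%, against 5.8%). These are matches of letters, with no binding measured.
The upstream 250 bases of 4 members are shown because 3 of these genes, Mrpl12, Mrpl17 and Mrpl52, were among those higher in KD tumor than in KD nontumor liver, and Mrpl18 was the only member that passed the test as lower there. The stretches shown all hold a match, which other genes higher there do not all have. In their upstream 250 bases Mrpl57 and Mrps21 hold an NRF1 palindrome. Mrpl48, Mrpl50, Mrpl35 and Mrps30 hold neither an ETS core nor an NRF1 palindrome in theirs. Capitals mark a match to the ETS core or the NRF1 palindrome, read on either strand. The windows are chr11:120484387-120484636 (plus strand), chr7:105811088-105811337 (minus strand), chr14:54426659-54426908 (plus strand) and chr17:12916092-12916341 (minus strand), each written 5′ to 3′ along its gene.
Mrpl12: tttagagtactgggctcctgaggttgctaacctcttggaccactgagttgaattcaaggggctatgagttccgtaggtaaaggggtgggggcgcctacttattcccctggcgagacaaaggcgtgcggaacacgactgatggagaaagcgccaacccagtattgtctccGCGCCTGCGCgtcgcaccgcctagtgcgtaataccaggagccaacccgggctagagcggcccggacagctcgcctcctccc
Mrpl17: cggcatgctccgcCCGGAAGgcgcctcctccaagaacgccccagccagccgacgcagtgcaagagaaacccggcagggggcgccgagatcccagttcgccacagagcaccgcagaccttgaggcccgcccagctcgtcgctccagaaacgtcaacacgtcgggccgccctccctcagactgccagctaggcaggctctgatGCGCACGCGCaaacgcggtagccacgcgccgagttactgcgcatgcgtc
Mrpl52: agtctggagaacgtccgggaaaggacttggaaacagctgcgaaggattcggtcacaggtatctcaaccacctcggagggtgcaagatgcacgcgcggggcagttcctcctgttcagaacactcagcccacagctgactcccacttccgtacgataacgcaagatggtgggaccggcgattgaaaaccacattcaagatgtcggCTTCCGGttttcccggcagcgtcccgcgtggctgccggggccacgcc
Mrpl18: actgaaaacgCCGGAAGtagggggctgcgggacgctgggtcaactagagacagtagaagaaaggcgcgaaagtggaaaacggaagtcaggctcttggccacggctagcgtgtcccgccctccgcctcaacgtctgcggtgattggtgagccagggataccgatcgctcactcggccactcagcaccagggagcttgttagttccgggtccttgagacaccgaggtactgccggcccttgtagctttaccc
Mrpl12 has an NRF1 palindrome beginning 81 bases before the start. Mrpl17 has one at 49 bases and an ETS core at 237 bases, and Mrpl52 has an ETS core at 47 bases. Mrpl18 has an ETS core too, at 240 bases, so this match is present in members that moved in opposite directions. These distances are from the RefSeq start. The Mrpl18 gene in the GENCODE annotation (chr17:12911349-12916345) starts further upstream and holds the whole window printed here. By that start the Mrpl18 match lies inside the gene, not before it.

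Levels below are TPM divided by a scaling factor per library (rescaled TPM; the factor is the median ratio over the 12119 genes above 0 in all libraries). The factor ran from 0.128 in ND nontumor 4, whose listed genes held 7.38% of its TPM total, to 1.52, and reads over the listed genes, recovered from the steps between TPM values, ran from 3518966 in that library to 14074042. The lowest member read number in any library was 6, and no member was at 0 in any library. Some libraries stand apart within their group. KD nontumor 3 and 4 had summed member levels of 1678 and 1923 rescaled TPM, below the 2832 and 2677 of KD nontumor 1 and 2. In both, and in ND nontumor 1 and 4 and ND tumor 3, short genes were lower relative to long ones, with log2 slopes of 0.06 to 0.12 per doubling of transcript length, while all KD tumor libraries had slopes of −0.14 to −0.03. The members are shorter than most genes (median 1075 against 1650 bases). Values without KD nontumor 3 and 4 and with length and GC trends removed are therefore given for the members in each comparison. They are not given for the other gene lists. Hepatocyte markers summed to 138590 to 192200 rescaled TPM in KD tumor, above every library of the other groups (69221 to 135670 in ND tumor, 37321 to 118290 in KD nontumor and 63980 to 128480 in ND nontumor). Of the 8, 3 were higher in tumor on KD and 0 lower, 1 was higher and 1 lower on ND, and 0 passed between the diets in tumor. Markers of liver tumor summed to 686 to 3467 in tumor and 6.22 to 609 in nontumor libraries. The summed cholangiocyte markers lay between 748 and 2520 for KD tumor, between 522 and 1923 for ND tumor and between 37.8 and 257 for the nontumor libraries, and of the 4 tested 1 was higher on KD, and 2 were higher and 1 lower on ND. Markers of proliferating cells were higher in tumor on both diets (6 of 6), and Kupffer cell markers were lower (5 of 6 on ND, 4 of 6 on KD, with summed levels of 66.3 to 169.75 in tumor and 151 to 377 rescaled TPM in nontumor liver). Between the diets in tumor, 2 of 6 Kupffer cell markers were higher on KD. Of 5 endothelial cell markers 2 were higher and 2 lower there, and 1 of the 4 cholangiocyte markers was lower. Of the liver tumor and proliferating cell markers 0 passed. The part of these cell types in the results was not tested. In bulk tissue, fewer cells of a type and less RNA per cell cannot be told apart. The labels do not say which tumor and nontumor library came from 1 mouse.

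The members span a wide range of levels. The median member averaged 17.9 rescaled TPM over the 16 libraries. The highest were Mrpl18 (187), Mrps21 (182), Mrpl52 (170.5), Mrpl54 (109.97) and Mrpl14 (108), and the lowest were Mrpl3 (3.27), Mrps25 (3.75), Mrps30 (4.796), Mrps18b (4.81) and Mrpl19 (4.998). Large subunit genes summed to 1222, 1722, 1994 and 1467 rescaled TPM in ND nontumor 1 to 4, 1781, 1975, 1508 and 1490.1 in ND tumor, 2032, 1906, 1242 and 1399.9 in KD nontumor and 2129.5, 1969, 2581 and 2182 in KD tumor. Small subunit genes summed to 528, 699, 744 and 565 in ND nontumor, 732, 813, 526 and 614 in ND tumor, 775, 747, 433 and 510.3 in KD nontumor and 912, 838, 1068 and 917 in KD tumor. For the small subunit all 4 KD tumor libraries were above every other library, while for the large subunit KD tumor 2 was below 1 library of each other group. The ratio of the sums lay between 2.31 and 2.87 in every library and varied least in KD tumor, at 2.33, 2.35, 2.42 and 2.38. Without Mrpl18, the most abundant member, it was 2.21, 2.26, 2.35 and 2.26 in KD tumor and 2.07, 2.095, 2.36 and 2.16 in ND tumor, so the groups overlapped.

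**Figure D1:**
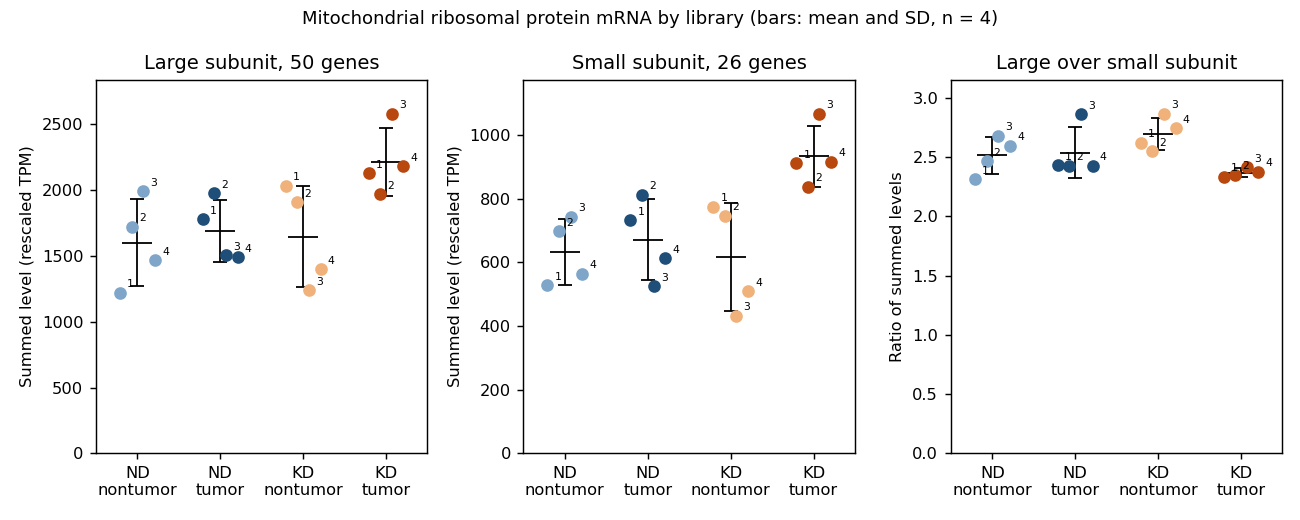
Summed rescaled TPM (y axis) of the 50 large subunit and 26 small subunit genes, and the ratio of the sums, in each library (points, numbered by replicate) of the 4 groups (x axis), with mean and SD (n = 4). The 4 KD tumor points are the highest for the small subunit, and the ratio stays between 2.31 and 2.87.

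Between tumors on the 2 diets, 11 mitoribosomal genes were higher on the ketogenic diet and 1, Mrpl18, was lower. The median log2 fold change (KD over ND) of the 77 was 0.48, against 0.03 over all genes tested, and 74 of 77 were above 0 against 52.5% of all genes. The 11 that rose are 14.3% of the 77, with 7.21% of all tested genes higher and 8.49% lower, and the share called in either direction (15.6%) was that of all genes (15.7%). The levels of the groups did not overlap for 30 members that were higher (39.0%, against 12.3% of all genes) and for 1 that was lower (1.3%, against 10.5%). The rising genes included 7 large subunit genes of 50 and 4 small subunit genes of 26.

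Mrpl46, a large subunit protein of the mitochondrial lineage (chr7:78775236-78783531, minus strand, GRCm38), had the largest rise. It was at 11.3, 12.1, 19.05 and 21.6 rescaled TPM in KD tumor 1 to 4 and at 2.24, 5.03, 7.699 and 4.79 in ND tumor, a log2 fold change of 1.55 (SE 0.33, adjusted p = 0.00677). Every KD tumor was above every ND tumor. Its exons overlap those of Mrps11 on the opposite strand, and the strand setting of the counting is not given in the sources used here, so shared reads are possible. Mrps11 itself was at 0.41 (adjusted p = 0.198).

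Mrps14, a small subunit protein with a bacterial counterpart, was at 19.3, 19.6, 27.3 and 28.8 rescaled TPM in KD tumor and 6.03, 11.5, 9.98 and 10.8 in ND tumor, with a log2 fold change of 1.24 (SE 0.33, adjusted p = 0.0216). Mrpl12, the stalk protein of the large subunit, which in human cells has also been found to bind the mitochondrial RNA polymerase, was at 107, 151, 189.9 and 132 in KD tumor and 69.5, 84.6, 58.1 and 60.9 in ND tumor, a log2 fold change of 1.06 (SE 0.26, adjusted p = 0.01400). The groups do not overlap for either gene. Mrps2, another small subunit protein with a bacterial counterpart, rose by 1.05 (SE 0.27, adjusted p = 0.01697). Mrpl36, one of the smallest large subunit proteins, was at 63.6, 54.8, 87.3 and 81.2 in KD tumor and 40.1, 34.9, 24.8 and 38.04 in ND tumor, which gives 1.03 (SE 0.27, adjusted p = 0.0205). Its exons overlap Ndufs6, a complex I subunit on the opposite strand, which was at 1.04 (adjusted p = 0.155).

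The other genes that rose were Mrpl35 (1.01), Mrps30 (0.82), Mrpl49 (0.81), Mrpl50 (0.79), Mrps31 (0.77) and Mrps17 (0.504 on the log2 scale), with adjusted p from 0.0178 to 0.0447. Mrps31 had 4 KD tumor libraries between 9.36 and 14.3 rescaled TPM and 4 ND tumor libraries between 5.59 and 8.29. Several high members did not pass, among them Mrpl52 (0.501, adjusted p = 0.1903) and Mrps21 (0.48, adjusted p = 0.233). Mrps36, outside the ribosome, was at 0.85 (adjusted p = 0.179) without overlap of the groups.

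The count of members called depended on single libraries. Without KD tumor 3 or without KD tumor 4 the count fell to 3, without ND tumor 1 to 4 and without ND tumor 3 to 7. The share of all genes called fell as well, from 15.7% to 7.66%, 8.24%, 8.62% and 11.3% in the same order. Without KD nontumor 3 the count was 21 (with 18.7% of all genes called), without KD nontumor 3 and 4 together 31 (21.4%), and with a voom fit on recovered reads 20 (18.6%). Mrpl46 and Mrpl18 passed whichever of the 16 libraries was left out. Other calls were lost when 1 library was left out, with the adjusted p then reached in parentheses. Mrpl12 lost its call without KD tumor 3 (0.0506). Mrps14 lost it without KD tumor 3 (0.0626), KD tumor 4 (0.0639) and ND tumor 1 (0.0707), and Mrps2 without KD tumor 3 (0.0569), KD tumor 4 (0.0588) and ND tumor 1 (0.0565). Mrpl36 lost it without KD tumor 3 (0.0655), KD tumor 4 (0.0592) and ND tumor 3 (0.0604), and Mrps30 without KD tumor 3 (0.0775), KD tumor 4 (0.0775), ND tumor 1 (0.0578) and ND tumor 4 (0.0533). Mrpl49 lost it without KD tumor 2 (0.0672), KD tumor 3 (0.0668), KD tumor 4 (0.0726), ND tumor 1 (0.0622) and ND tumor 3 (0.0771), and Mrpl35 without KD tumor 1 (0.0524), KD tumor 2 (0.0706), KD tumor 3 (0.1098), KD tumor 4 (0.09001), ND tumor 1 (0.113), ND tumor 3 (0.0967) and ND tumor 4 (0.0599). Mrps31 lost it without KD tumor 3 (0.0706), KD tumor 4 (0.0577), ND tumor 1 (0.0556) and ND tumor 3 (0.0509), and Mrpl50 without KD tumor 4 (0.05405) and ND tumor 1 (0.0582). Mrps17 lost it in 10 of the 16 fits, with an adjusted p of up to 0.141. With length and GC trends removed the members' median was 0.36 and 13 passed (15.5% of all genes did), 10 of them the same genes, without Mrpl35 and Mrps17. With the listed genes scaled to 1 common sum, which moves the median of all genes to −0.33, the members' median was 0.05 and 3 members rose and 3 fell. Of all genes, 2.03% rose and 19.4% fell on that scale.

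**Figure D2:**
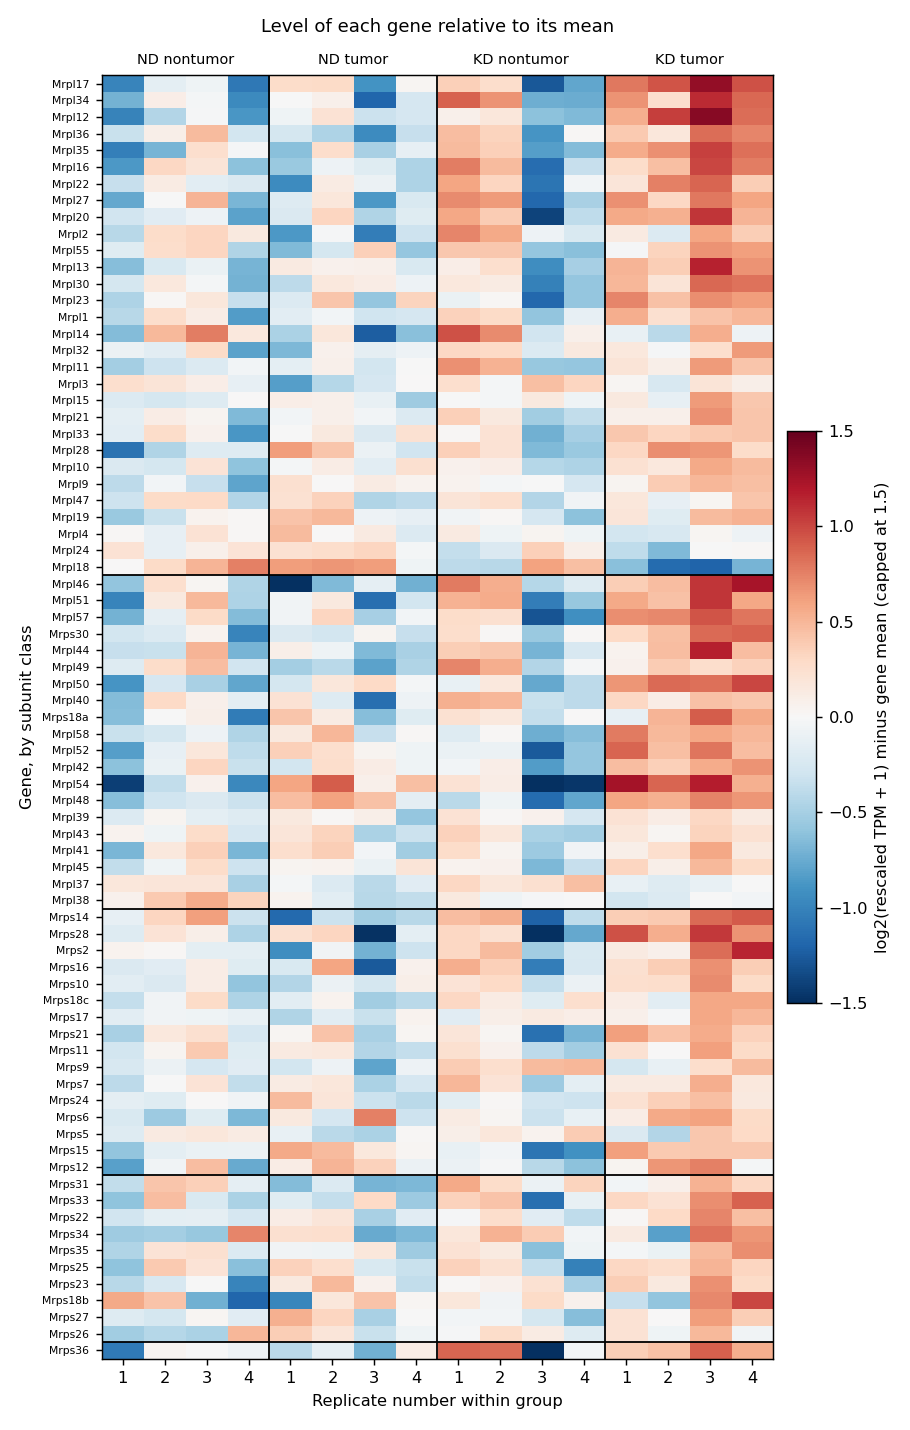
Level of each of the 77 genes (rows, grouped by role) in each of the 16 libraries (columns, by group), as log2(rescaled TPM + 1) minus the gene's mean over all libraries, colour limits at −1.5 and 1.5. The mean of the KD tumor columns is above that of the ND tumor columns in 74 of 77 rows, KD nontumor 3 and 4 are low in most rows, and the Mrpl18 row runs the other way.

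Mrpl18 moved against the family. It is a large subunit protein (chr17:12911349-12916345, minus strand) whose bacterial counterpart binds 5S rRNA, and in mammalian cells heat shock has been found to yield a form that stays on cytosolic ribosomes. It was at 110.0, 76.5, 73.8 and 105 rescaled TPM in KD tumor 1 to 4, 264, 271, 265 and 163 in ND tumor, 130.4, 128, 260.3 and 234 in KD nontumor and 171, 209, 244 and 290.0 in ND nontumor. Its level was lowest in KD tumor, and within KD nontumor it was highest in the same libraries 3 and 4 in which other members were low.
The log2 fold change was −1.38 (SE 0.27, adjusted p = 0.00455) in KD against ND tumor and −0.98 (SE 0.27, adjusted p = 0.0104) in KD tumor against KD nontumor liver, with groups that do not overlap in either comparison. Without KD nontumor 3 and 4 the second value was −0.52 (adjusted p = 0.213). In ND tumor against ND nontumor it was 0.07 (adjusted p = 0.868). Against the median member of the same library, a ratio that no scaling changes, Mrpl18 was 5.06, 3.49, 2.55 and 4.07 times as high in KD tumor and 15.9, 14.2, 19.7 and 10.8 times in ND tumor. In nontumor liver the ratio was 6.202, 5.77, 22.6 and 15.3 on KD and 11.9, 12.4, 13.3 and 21.4 on ND. Mrpl18 exons overlap Tcp1, a chaperonin subunit on the opposite strand, which was at 0.03 (adjusted p = 0.935) for KD against ND tumor and −0.49 (adjusted p = 0.0396) for the KD tissues.

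**Figure D3:**
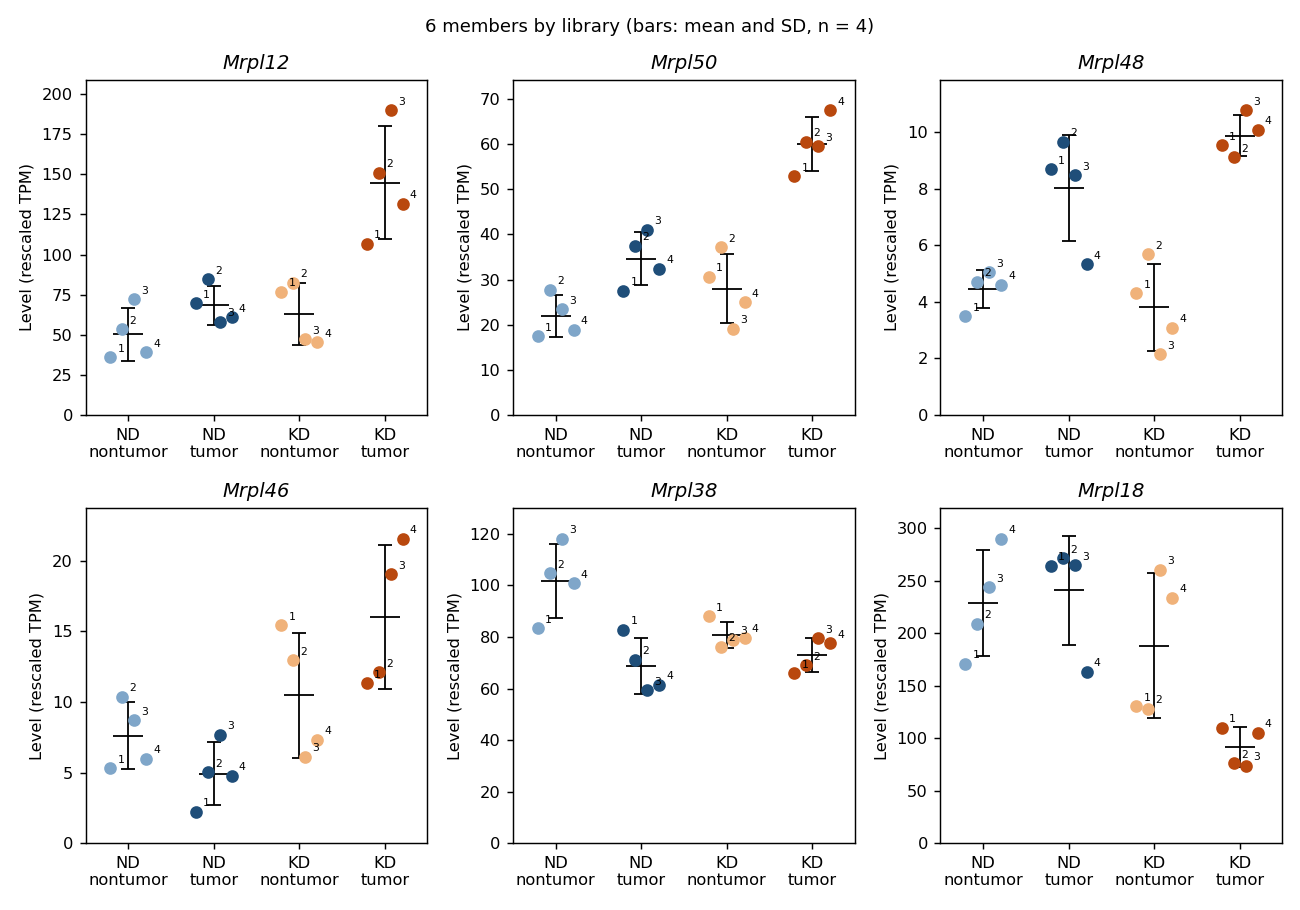
Rescaled TPM (y axis, from 0) of single genes in each library (points, numbered by replicate) of the 4 groups (x axis), with mean and SD (n = 4). Mrpl46 and Mrpl12 are higher in every KD tumor than in every ND tumor, and Mrpl18 is lower in every KD tumor than in every other library.

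Within the ketogenic diet, 19 of the 77 members were higher in tumor than in nontumor liver and 1, Mrpl18, was lower, which is 24.7% higher against 16.3% of all tested genes and 1.3% lower against 16.2%. In either direction 20 of the 77 were called, against 32.5% of all tested genes. The members' median log2 fold change was 0.50 against 0.01 over all genes, and 65 were above 0 (50.8% of all genes were). The rises were 16 of 50 large subunit genes and 3 of 26 small subunit genes, and 9 of the 20 large subunit genes of the mitochondrial lineage. Groups did not overlap for 22 higher members (28.6%, against 15.8% of all genes) and 2 lower ones, Mrpl18 and Mrpl37 (2.6%, against 17.3%).

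Mrpl54, a large subunit protein of the mitochondrial lineage, was at 217, 167, 207 and 133 rescaled TPM in KD tumor and 106, 98.7, 21.3 and 32.5 in KD nontumor, a log2 fold change of 1.75 (SE 0.44, adjusted p = 0.00611). All 4 tumors were higher, but KD nontumor 3 and 4 were far below KD nontumor 1 and 2. Mrpl17, a large subunit protein with a bacterial counterpart, showed the same split of the nontumor libraries, at 20.2, 22.6, 29.6 and 22.9 in KD tumor and 14.7, 13.7, 4.09 and 6.15 in KD nontumor, with 1.36 (SE 0.36, adjusted p = 0.00852). Mrpl52 was at 292, 218, 279 and 220.2 in KD tumor and 149, 149, 65.98 and 107 in KD nontumor, with 1.15 (SE 0.26, adjusted p = 0.00324). It is among the most abundant members, and again each tumor exceeded each nontumor library.
Mrpl48 differed with less spread. It was at 9.54, 9.12, 10.8 and 10.1 in KD tumor and 4.31, 5.68, 2.16 and 3.09 in KD nontumor, with 1.23 (SE 0.22, adjusted p = 5.22e-04). Mrpl50 was at 52.9, 60.6, 59.5 and 67.5 in KD tumor and 30.6, 37.1, 19.1 and 24.99 in KD nontumor, with 1.11 (SE 0.203, adjusted p = 7.02e-04). Both are large subunit proteins of the mitochondrial lineage, and their groups do not overlap. Mrpl48 overlaps Rab6a on the opposite strand, and Rab6a was higher in KD tumor too, at 0.78 (adjusted p = 0.00724).
Mrps28 (1.26), Mrpl57 (1.22), Mrpl12 (1.21) and Mrpl23 (1.08), whose bacterial counterpart lines the exit tunnel, rose by more than 1 log2 unit. Mrps15, Mrpl58, Mrpl13, Mrpl35, Mrpl30, Mrps21, Mrpl42, Mrps30, Mrpl10 and Mrpl45 rose by 0.52 to 0.997. Mrpl58 is a peptidyl-tRNA hydrolase built into the large subunit, and Mrpl45 sits by the exit tunnel at the inner membrane.

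Much of this comparison rests on KD nontumor 3 and 4. Without both, 3 members passed (Mrpl48, Mrpl50 and Mrpl58), the members' median was 0.13, and the share of all genes called fell from 32.5% to 14.6%. Mrpl54 was then at 0.79 (adjusted p = 0.145), Mrpl17 at 0.69 (0.203), Mrpl52 at 0.74 (0.0574), Mrpl12 at 0.82 (0.0602), Mrpl57 at 0.53 (0.204) and Mrps28 at 0.54 (0.401), adjusted p in parentheses. Without KD nontumor 3 alone 13 passed, with 24.8% of all genes called. Mrps28 lost its call without KD nontumor 3 (0.0948), KD nontumor 4 (0.0717), KD tumor 1 (0.0577) and KD tumor 3 (0.0649), while Mrpl54, Mrpl17, Mrpl48, Mrpl57, Mrpl12, Mrpl52, Mrpl50 and Mrpl18 kept theirs with any 1 library left out. Of the other 11, Mrpl13, Mrpl23, Mrpl42, Mrpl58 and Mrps15 kept theirs too, and Mrpl10, Mrpl30, Mrpl35, Mrpl45, Mrps21 and Mrps30 lost theirs in 1 to 7 of the 16 fits. With length and GC trends removed the median fell from 0.50 to 0.28, and 18 of the 20 genes still passed among 21 (33.4% of all genes did). Mrps21, the second most abundant member, was then at 0.20 (adjusted p = 0.305), Mrpl45 was at 0.46 (adjusted p = 0.0609), and Mrpl14, Mrpl37 and Mrps18c passed as lower, at −0.76 (adjusted p = 0.0244), −0.44 (adjusted p = 0.0406) and −0.47 (adjusted p = 0.0483).

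On the normal diet few members differed between tumor and nontumor liver. Of the 77, 3 rose and 2 fell (6.49% in all), against 28.7% of all tested genes, of which 14.5% were higher and 14.2% lower. The median log2 fold change was 0.07, and 46 were above 0 (49.7% of all genes were). Groups did not overlap for 4 higher members (5.19%, against 13.8%) and 3 lower ones (3.9%, against 13.7%).

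Mrpl48 was at 8.69, 9.66, 8.48 and 5.33 rescaled TPM in ND tumor and 3.504, 4.71, 5.05 and 4.61 in ND nontumor, with a log2 fold change of 0.71 (SE 0.22, adjusted p = 0.0214). Mrpl50 was at 27.5, 37.5, 41.1 and 32.4 in ND tumor and 17.4, 27.7, 23.5 and 18.9 in ND nontumor, with 0.65 (SE 0.203, adjusted p = 0.02497). These 2 genes passed on both diets. Mrpl50 in ND tumor 1 was just below ND nontumor 2, so its groups overlap. Mrpl9, with a bacterial counterpart in the large subunit, was at 26.98, 22.8, 24.8 and 23.6 in ND tumor and 17.04, 22.01, 17.6 and 12.7 in ND nontumor, with 0.499 (SE 0.16, adjusted p = 0.0303). Mrpl38, at the central protuberance of the large subunit, was at 82.9, 71.2, 59.3 and 61.5 in ND tumor and 83.5, 105, 118 and 101 in ND nontumor, with −0.56 (SE 0.15, adjusted p = 0.01203). Every ND tumor was below every ND nontumor library. Mrps31, of the small subunit, was at 5.78, 8.29, 5.59 and 5.68 in ND tumor and 7.28, 13.3, 12.7 and 8.72 in ND nontumor, with −0.63 (SE 0.21, adjusted p = 0.03203), and ND tumor 2 lay above ND nontumor 1. Mrpl54 had groups that do not overlap but missed the threshold, at 1.18 (adjusted p = 0.0531).

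Mrpl38 passed with any 1 library left out. The other 4 lost their call when certain libraries were left out, with the adjusted p then reached in parentheses. For Mrpl48 these were ND nontumor 1 (0.0657), ND tumor 1 (0.05397) and ND tumor 2 (0.0627). For Mrpl50 they were ND nontumor 1 (0.0778), ND nontumor 4 (0.0621), ND tumor 2 (0.05996) and ND tumor 3 (0.0719). For Mrpl9 they were ND nontumor 1 (0.0571), ND nontumor 3 (0.0527), ND nontumor 4 (0.0967), ND tumor 1 (0.0772) and ND tumor 3 (0.0571). For Mrps31 they were ND nontumor 2 (0.107), ND nontumor 3 (0.0972), ND tumor 1 (0.0726), ND tumor 3 (0.0741) and ND tumor 4 (0.0677). With length and GC trends removed 9 passed (30.3% of all genes did), and the members' median was 0.02. Mrps31 was then at −0.54 (adjusted p = 0.0733), no longer past the threshold, while Mrpl54 passed at 1.04 (adjusted p = 0.0181). Mrpl14, Mrpl2, Mrpl49 and Mrpl36 passed as lower, at −0.88 (adjusted p = 0.0114), −0.75 (adjusted p = 0.0149), −0.68 (adjusted p = 0.0131) and −0.57 (adjusted p = 0.0464). The count was 3 without ND nontumor 1, 2 without ND tumor 1 or ND tumor 3, 8 without KD nontumor 3 and 10 without KD nontumor 3 and 4, while the share of all genes called was 23.9% to 25.4% in the first 3 of these fits and 30.2% and 31.9% in the last 2. With the listed genes scaled to 1 common sum, 15 rose and none fell, with the median of all genes at 0.21. Of all genes, 19.4% rose and 8.11% fell on that scale.

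**Figure D4:**
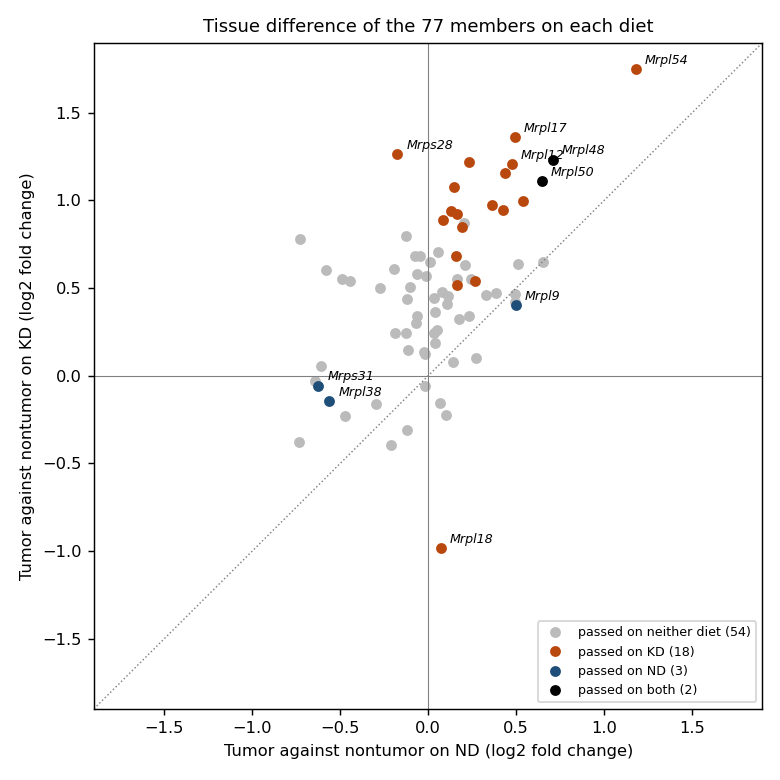
Log2 fold change of tumor over nontumor liver for each of the 77 genes on the normal diet (x axis) and on the ketogenic diet (y axis), each point 1 gene. The diets have separate libraries, and the medians are 0.07 on ND and 0.50 on KD.

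In nontumor liver no member passed the test between the diets. By limma 0 of 77 passed, while 0.0521% of all genes did (0.00744% higher and 0.0447% lower). For 1 member, Mrps9, the unadjusted p was under 0.05, which held for 8.9% of all genes (0.59 on the log2 scale, adjusted p = 0.292), and voom called 0 members (0.0447% of all genes) and a fit with sample weights 1, or 1.3% of the members against 3.22% of all genes. Mrps9 was also the only member whose nontumor groups did not overlap (1.3%, against 3.19% of all genes that were higher and 2.79% that were lower). The median log2 fold change was 0.13 and 50 members were above 0 (51.0% of all genes were), and without KD nontumor 3 and 4 it was 0.41 with 72 of 77 above the median of all genes, still with 0 called (0.655% of all genes) and 20 at an unadjusted p under 0.05 of 77 members, against 12.4% of all genes. With length and GC trends removed the median was 0.13, and 0 members passed (0.0914% of all genes), with 2 at an unadjusted p under 0.05 (9.61% of all genes).

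The difference between the tissue effects on the 2 diets passed for 0 of 77 by limma (0.618% of all genes passed, 0.208% higher and 0.409% lower), with 9 at an unadjusted p under 0.05 (18.0% of all genes) and 0 by voom (0.603% of all genes). The 5 smallest p-values were those of Mrps14, at 1.51 (SE 0.47, adjusted p = 0.127), Mrpl18, at −1.06 (SE 0.38, adjusted p = 0.172), Mrpl36, at 1.04 (SE 0.39, adjusted p = 0.182), Mrps2, at 0.99 (SE 0.38, adjusted p = 0.191), and Mrpl46, at 1.18 (SE 0.46, adjusted p = 0.196). The members' median was 0.42 with 65 above 0 (50.4% of all genes were), and it was 0.08 without KD nontumor 3 and 4. With length and GC trends removed it was 0.297, with 0 called (0.472% of all genes) and 11 at an unadjusted p under 0.05 (17.5% of all genes). The larger number of members called on KD than on ND is thus not shown to be a difference between the diets.

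On TPM as deposited, with no rescaling, 0 of 77 passed by limma in any of the 5 comparisons, with 1 to 7 at an unadjusted p under 0.05. Of all genes, 10.6% passed for the tissues on ND and 8.27% for the tissues on KD. For the diets 0.841% passed in tumor and 0.484% in nontumor liver, and for the difference of tissue effects 0.104%. At an unadjusted p under 0.05 were 4, 2, 4, 7 and 1 members in this order, against 22.2%, 20.9%, 8.25%, 13.3% and 10.4% of all genes. On that scale the tissue comparison had a median over all genes of 0.42 with the normal diet and −0.26 with the ketogenic diet. The diet comparison had one of 0.00 among tumors and 0.69 among nontumor libraries, and the difference of tissue effects one of −0.67. Relative to it, the members' medians were 0.14, 0.46, 0.44, 0.21 and 0.30, so the sign against other genes was the same as after rescaling.

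Most members varied together across the libraries. Against the median of the other members, over all 16 libraries, 71 of 77 had a Pearson's r above 0, 32 were at 0.8 or above, and the median was 0.75. These values describe libraries that differ in group, depth and length trend. The same r was not computed for all tested genes, so it is not shown to be particular to this family. Mrpl17 (0.95) and Mrpl20 (0.94) followed the rest most closely. Below 0 were Mrpl18 (−0.81), Mrpl24 (−0.60), Mrpl4 (−0.21), Mrpl3 (−0.06), Mrpl38 (−0.03) and Mrpl37 (−0.03).

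Among genes that work around the mitoribosome, calls fell in both directions. In KD against ND tumor 7.21% of all tested genes rose and 8.49% fell. The lists below are short, and none was tested against these shares. Among 14 tested factors of mitochondrial translation, 4 rose and 2 fell in KD against ND tumor. The elongation factors Gfm1 and Tsfm were at 1.098 (adjusted p = 0.00815) and 1.06 (adjusted p = 0.02998), the RNA-binding Lrpprc, which stabilises mitochondrial mRNA, was at 0.72 (adjusted p = 0.0284), and Mtfmt, which formylates the initiator tRNA, was at −0.65 (adjusted p = 0.0154). Of 25 assembly factors 1 rose and 0 fell, Noa1 at 0.74 (adjusted p = 0.0267). Of 5 mitoribosomal proteins with other symbols 1 rose, the large subunit protein Gadd45gip1 at 1.45 (adjusted p = 0.0161), and 1 fell, the small subunit protein Dap3 at −0.65 (adjusted p = 0.0159). Of 9 genes of mitochondrial transcription and replication, the elongation factor Tefm was at 0.98 (adjusted p = 0.0434) and the RNA polymerase Polrmt at −0.61 (adjusted p = 0.0247). Of 22 mitochondrial tRNA synthetase genes, Nars2 was at 0.82 (adjusted p = 0.0297) and Cars2 at −0.74 (adjusted p = 0.0127). Of 9 regulators of mitochondrial biogenesis 1 passed, the coactivator Ppargc1b at −1.07 (adjusted p = 0.0273).
Between KD tumor and KD nontumor liver, 1 of the 25 assembly factors rose, Mettl15 at 0.96 (adjusted p = 0.0278), and 3 fell, among them Mettl17 at −0.96 (adjusted p = 0.00323) and the rRNA methyltransferase Mrm1 at −0.88 (adjusted p = 0.001996). Of all genes, 16.3% rose and 16.2% fell between these tissues. Among the 9 regulators Yy1 rose, at 0.62 (adjusted p = 0.02205). Ppargc1b, at −1.32 (adjusted p = 0.003601), and mouse Myc, at −1.11 (adjusted p = 0.0414), fell, while the plasmid in these tumors carries the human gene. Mouse Myc was at 20.7, 20.05, 6.47 and 6.45 rescaled TPM in KD nontumor 1 to 4. It was at 4.95, 10.3, 3.39 and 3.005 in KD tumor, so KD nontumor 3 and 4 lay within the range of the tumors. Ppargc1b was at 3.41, 3.26, 8.19 and 10.7 in KD nontumor 1 to 4 and at 1.89, 0.955, 2.05 and 2.05 in KD tumor. Its nontumor level was thus highest in KD nontumor 3 and 4. Of the tRNA synthetases 4 rose and 3 fell. Gars, at 1.43 (adjusted p = 1.15e-04), and Kars, at 1.18 (adjusted p = 0.00108), which also serve the cytosol, led the rises. Hars2, at −1.16 (adjusted p = 8.49e-04), and Aars2, at −1.08 (adjusted p = 0.00123), led the falls. Hars2 was at 19.4, 18.1, 34.0 and 35.6 rescaled TPM in KD nontumor 1 to 4 and at 9.09, 9.84, 10.4 and 14.9 in KD tumor. On the normal diet 3 of 14 translation factors fell, with Gfm1 at −0.68 (adjusted p = 0.0421), Lrpprc at −0.62 (adjusted p = 0.0335) and Taco1, an activator of Cox1 translation, at −1.301 (adjusted p = 0.0381). Of the assembly factors 1 rose and 3 fell, the falls including Mrm1 at −0.72 (adjusted p = 0.00809) and Mettl17 at −0.81 (adjusted p = 0.00996). Of the tRNA synthetases 5 rose, among them Kars at 0.89 (adjusted p = 0.00797) and Gars at 0.80 (adjusted p = 0.00821), and 1 fell. Mrm1, Mettl17, Kars and Gars thus passed in the same direction on both diets. Of the regulators 1 fell, Ppargc1a at −0.67 (adjusted p = 0.0214). Of all genes, 14.5% rose and 14.2% fell.

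The members were set against the 79 nuclear respiratory chain and ATP synthase genes, whose partners the mitoribosome makes, and against the cytosolic ribosomal proteins. In KD against ND tumor 32 of 79 respiratory genes rose and 0 fell, with a median log2 fold change of 1.01. In ND tumor against ND nontumor liver 1 rose and 13 fell (median −0.47), and on KD 7 rose and 1 fell (median 0.44). Of all genes, 7.21% rose and 8.49% fell in KD against ND tumor. For the tissues, 14.5% rose and 14.2% fell on ND, and 16.3% rose and 16.2% fell on KD. The summed respiratory level was 5297 and 8465 rescaled TPM in KD nontumor 3 and 4, against 17091 and 15573 in KD nontumor 1 and 2. In KD tumor it ran from 12376 to 17937. Of 80 cytosolic ribosomal protein genes tested, 41 rose and 1 fell on ND (median 0.88), and 75 rose and 0 fell on KD (median 1.66), in tumor against nontumor liver, and 4 rose and 0 fell in KD against ND tumor (median 0.72).
The summed member level was 33.8, 30.1, 38.7 and 28.1 percent of the summed respiratory chain level in ND tumor 1 to 4, and 22.3, 22.8, 20.5 and 20.3 percent in KD tumor. It was 22.6, 17.7, 17.5 and 25.1 percent in ND nontumor and 16.6, 17.2, 31.7 and 22.7 percent in KD nontumor. The share was thus higher in every ND tumor than in every KD tumor and every ND nontumor library, while KD nontumor 3 was above ND tumor 2 and 4. Within their groups, the libraries in which short genes were lower (KD nontumor 3 and 4, ND nontumor 1 and 4 and ND tumor 3) had the highest shares. The length slopes were 0.006, −0.006 and 0.008 in ND tumor 1, 2 and 4 and below 0 in all KD tumors. Against the cytosolic ribosome the members made 7.76, 6.61, 6.78 and 5.801 percent in ND tumor, 5.87, 6.34, 5.46 and 5.34 percent in KD tumor, 12.1, 11.5, 11.03 and 12.4 percent in ND nontumor and 11.99, 9.29, 16.5 and 16.5 percent in KD nontumor. Every tumor was below every nontumor library on either diet. These ratios within a library do not depend on the scaling factor. They were not adjusted for the length trend, and its part in them was not tested.

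**Figure D5:**
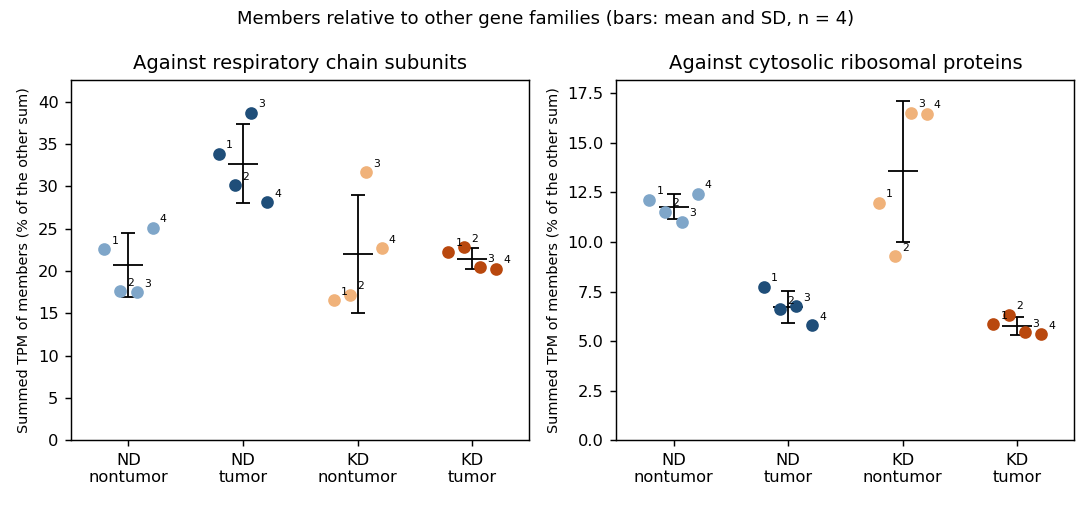
Summed rescaled TPM of the 77 genes as a percent of that of the respiratory chain genes (left) and of the cytosolic ribosomal protein genes (right), y axes from 0, in each library (points, numbered by replicate) of the 4 groups, with mean and SD (n = 4). The ND tumors stand above all KD tumors and all ND nontumor libraries against the respiratory chain, and all tumors stand below all nontumor libraries against the cytosolic ribosome.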

How the data were processed

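Per the labels, polyadenylated RNA from tumor and nontumor liver was sequenced, with 4 libraries in each of 4 groups. Per the submitters' processing notes, FastQC, HISAT2, SAMtools and featureCounts were used with mm10. Versions, the gene annotation, the strand setting and the step from counts to TPM are not given in the sources used here. The authors deposited TPM values for 20601 genes in 16 columns. Nontumor columns are headed with P instead of the N of the sample titles and were matched by diet letters and number.

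TPM was divided by median-of-ratios factors (12119 genes above 0 in all libraries), and log2(rescaled TPM + 1) of 13432 genes (TPM 1 or more in 4 or more libraries) was fitted with limma 3.58.1 in R 4.3.3, with a variance trend, all 16 libraries in 1 fit and no block. P-values were adjusted over all tested genes (Benjamini-Hochberg, threshold 0.05, two-sided). A fold change on this scale understates that of low genes. Reads were recovered from the steps between TPM values (all 20601 genes within 0.001 of whole reads) and used for depth and a voom fit. Transcript lengths and GC contents, used to remove trends for 13129 genes, and overlaps came from GENCODE vM21. Scripts were tested on simulated data. PCR reads are not independent molecules, so read numbers show counting depth only.

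The members, the lists and the groups of roles were chosen with earlier results of these data known. Members named are the fixed set Mrpl12, Mrpl36, Mrps6, Mrps12, Mrps18a, Mrps18b, Mrps18c, Mrps30 and Mrps36, the 5 highest and 5 lowest by mean, and up to 8 per direction and comparison by size of change. Others are named where a count or an overlap falls on them, after their values were seen.
Alternatives were the deposited scale, 1 common sum, a pseudocount of 0.1, no filter, a fit of only the groups compared, weights per sample, the replicate block, the length and GC adjustment, a minimum log2 fold change of 1, voom, and libraries left out. The 4 same-numbered pairs of each diet had correlations of deviations from −0.11 to 0.16, so the data do not show that the numbers pair the libraries.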

Additional observations from a re-analysis of the deposited data

Results flagged for a closer look

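In 144 groups of 4 libraries examined (named genes and ratios in each group), 5 held a library far from the other 3, by the gap to its neighbour as a share of the group's range (above Dixon's 95% critical value). Chance flags about 1 in 20 groups. Mrpl18 in ND tumor 4 was at 163 rescaled TPM, with the other ND tumors at 264 to 271. Mrps31 in ND tumor 2 was at 8.29, with the others at 5.59 to 5.78. Mrps36 in ND nontumor 1 was at 5.64, with the others at 12.2 to 13.3. The ratio of large to small subunit sums in ND tumor 3 was 2.86, with the others at 2.43. The ratio of Mrpl18 to the median member in ND nontumor 4 was 21.4, with the others at 11.9 to 13.3.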

How the results depend on the processing

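The count of members that passed (5 for the tissues on ND, 20 for the tissues on KD, 12 for the diets in tumor, 0 for the diets in nontumor liver and 0 for the difference of tissue effects) changed with the scaling, with the libraries left out and with other fits. Percents in this paragraph are the shares of all genes called in the same fit. They were 28.7%, 32.5%, 15.7%, 0.0521% and 0.618% in the fit reported, in the same order. On TPM as deposited the count was 0 in each (10.6%, 8.27%, 0.841%, 0.484% and 0.104%). There Mrpl38 for the tissues on ND turned from −0.56 to 0.089 (adjusted p = 0.953), as the median of all genes moved by 0.42. The other 22 calls of named members kept their direction but not their call there. With 1 common sum the count was 15 (tissues on ND, 27.6%), 6 (diets in tumor, 21.4%) and 1 (difference of tissue effects, 4.06%). For the tissues on ND it was 9 with sample weights (33%), 9 with length and GC trends removed (30.3%) and 10 without KD nontumor 3 and 4 (31.9%). Without those libraries it was 3 for the tissues on KD (14.6%) and 31 for the diets in tumor (21.4%). For the diets in tumor it was 21 with only the groups compared (15.6%) and 20 with voom (18.6%), and for the diets in nontumor liver it was 1 with sample weights (3.22%). With a log2 fold change of at least 1 it was 0, 9 and 7 in the first 3 comparisons (15.4%, 16% and 6.41%). Leaving out 1 library gave 2 to 8 (tissues on ND, 22.9% to 30.2%), 13 to 26 (tissues on KD, 24.3% to 33.6%), 3 to 21 (diets in tumor, 7.66% to 18.7%) and 0 in the other comparisons (0.0372% to 0.0893% and 0.067% to 1.19%). The other settings gave counts within 1.5 times those reported, and the cause of each change was not tested. With the replicate number as a block, which the data do not show to pair the libraries, the count for the tissues on ND was 2 (25.7%). It was 18 (29.1%), 12 (15.7%), 0 (0.0521%) and 0 (0.238%) in the others. With 4 libraries a group and as few as 6 reads for a member in ND nontumor 4, smaller differences of low members were not detectable. The voom fit and the removal of KD nontumor 3 and 4 together were chosen after seeing the data.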

Other observations

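Mammals have 3 genes related to the bacterial S18 protein, whose products take different places in the mitoribosome. Mrps18c, which holds the place of the bacterial protein in the small subunit, was the highest, at 14.2 ± 3.700 rescaled TPM in ND nontumor, 12.9 ± 2.47 in ND tumor, 17.1 ± 2.65 in KD nontumor and 19.4 ± 4.93 in KD tumor (SD, n = 4). Mrps18a, in the large subunit, was at 4.21 ± 1.83, 5.45 ± 1.93, 5.66 ± 1.13 and 8.35 ± 2.59 in the same order. Mrps18b, elsewhere in the small subunit, was at 4.196 ± 2.800, 4.36 ± 1.91, 4.84 ± 0.585 and 5.84 ± 3.51. None of the 3 passed limma's test in any comparison on rescaled TPM, but with length and GC trends removed Mrps18c passed as lower in KD tumor than in KD nontumor liver, at −0.47 (adjusted p = 0.0483), and for Mrps18b the libraries of 1 group differed by more than the groups did.

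In the GENCODE annotation 32 of the 77 genes share exon bases with another gene, 27 of them with one on the opposite strand and 7 with one on the same strand, and 18 start within 1000 bases of a gene running the other way. The start-sharing partners did not follow their members in every case. Zfp189, beside Mrpl50, was at −0.64 (adjusted p = 0.00502) in KD tumor against KD nontumor liver, and Apba3, beside Mrpl54, at −0.68 (adjusted p = 0.0139), while both members rose. Syvn1, which overlaps Mrpl49, was at −1.25 in ND tumor against ND nontumor liver, where Mrpl49 was at −0.61 (adjusted p = 0.0619). Tmem63b overlaps Mrpl14 on the opposite strand and was at −1.07 (adjusted p = 0.00152) in KD tumor against KD nontumor liver. In that comparison Mrpl14 passed as lower with length and GC trends removed.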
